A study of Mus musculus with 5 samples.

Results

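A set of 10 genes used as markers of neutrophils was followed in RNAseq libraries of macrophages sorted from the aorta of atherosclerotic mice. These 10 genes, of 55487 in the count table, were taken by symbol and were chosen by the counts of these same libraries, because neutrophil markers had been detected in several of them. They comprised *S100a8*, *S100a9*, *Retnlg*, *Lcn2*, *Camp*, *Ngp*, *Ly6g*, *Csf3r*, *Elane* and *Mpo*. Because detection chose the set, which genes were detected is described here without a test, whereas the rule did not use the difference between genotypes. Of the 10 genes, 5 were counted above a floor of 3 counts in at least 3 of the 5 libraries and 5 stayed at or under it in every library. The detected genes were *S100a8*, *S100a9*, *Retnlg*, *Lcn2* and *Csf3r*. The granule genes *Camp*, *Ngp*, *Elane* and *Mpo* had 0 counts throughout, whereas *Lcn2*, also a granule gene, was detected, and *Ly6g*, a surface protein of mouse neutrophils, had 1 count in all. The name "neutrophil genes" therefore describes how the set is used elsewhere, and *Ly6g*, the marker by which the cell is usually identified, was not above the floor at this depth.

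Neutrophils are short-lived granulocytes that leave the bone marrow with their granules already filled. Azurophil granule proteins (*Elane*, *Mpo*) are transcribed in promyelocytes and specific granule proteins (*Camp*, *Ngp*, *Lcn2*) in myelocytes, so mature blood neutrophils hold little of these mRNAs, whereas *S100a8*, *S100a9*, *Csf3r* and *Retnlg* mRNAs persist in mature cells. Monocytes also express *S100a8*, *S100a9* and *Csf3r*, and activated macrophages can express *Lcn2*. In the atherosclerotic artery, neutrophils are a minor population that carries CD45 and CD11b but little or no F4/80.

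The libraries came from male mice of 2 genotypes. Those labelled WT were *Zeb1*WT/*Apoe*KO (WT in this text), and those labelled KO were mice with *Zeb1* deleted in myeloid cells, *Zeb1*∆M/*Apoe*KO (∆M). Both groups lacked *Apoe*, carried floxed *Zeb1* alleles, from mice crossed to C57BL6/J, and received chow for 8 weeks and a Western diet for 10 weeks, to an age of 18 weeks. Only the ∆M mice carried the *LysM*Cre allele, in which the *Lyz2* locus drives Cre; this promoter is active in neutrophils as well as in monocytes and macrophages. Viable aortic cells positive for CD45 and F4/80, and per the study's methods also for CD11b, were sorted. Each genotype's cells were a mix from 3 mice, so that the spread between the 2 WT and 3 ∆M libraries may be technical rather than between animals.

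The libraries held 20118545 and 34596110 counts in WT and 24372265, 35771785 and 50649912 counts in ∆M. ∆M replicate 1 stood apart. It had 16423 genes above the floor against 5009 to 6931 in the others, only 870 genes with at least 100 counts against 1714 to 4421, and 133027 counts of the hemoglobin gene *Hba-a2*, which had 0 counts in every other library. *Lyz2* took 0.663% of its counts against 1.72% to 2.96% elsewhere. The macrophage gene *Adgre1* (F4/80) had 1068 to 38190 counts, *Cd68* had 0 counts in WT replicate 1 and 10 in ∆M replicate 1, and *Apoe*, deleted in both groups, had 0 to 86 counts. *Zeb1* was counted in that library alone (22 counts) and did not check the genotype labels. Detection was patchy over the whole table, since 52.0% of the 21705 genes above the floor anywhere were above it in a single library and 24.6% in 3 or more.

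The calprotectin genes took the largest share per length of exon. *S100a8* (ENSMUSG00000056054.9, GRCm38 chromosome 3, 90668978 to 90670035, plus strand) and *S100a9* (ENSMUSG00000056071.12, 90692632 to 90695721, minus strand) encode the subunits of calprotectin, a calcium-binding alarmin stored in the cytosol of neutrophils and monocytes. They are adjacent protein-coding genes that face each other tail to tail with 22596 bases between them. Their promoter windows, from 250 bases before to 50 after the RefSeq start site (GRCm38.p6), are printed here 5′ to 3′ on the strand of the gene because these genes carried most of the signal per length of exon. The *S100a8* window is chr3:90668821-90669120 (+) and the *S100a9* window chr3:90695672-90695971 (−). Capitals mark the searched letters, GAGGAA or TTCCTC for the core read by PU.1 and TTNNGCAA or TTGCNNAA for C/EBP, each written for both strands.
S100a8: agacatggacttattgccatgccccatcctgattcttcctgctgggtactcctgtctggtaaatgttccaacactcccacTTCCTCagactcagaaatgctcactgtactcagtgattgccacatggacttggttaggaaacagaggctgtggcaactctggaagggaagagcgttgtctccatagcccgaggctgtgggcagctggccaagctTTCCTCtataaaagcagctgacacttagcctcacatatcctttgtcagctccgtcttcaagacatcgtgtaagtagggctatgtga
S100a9: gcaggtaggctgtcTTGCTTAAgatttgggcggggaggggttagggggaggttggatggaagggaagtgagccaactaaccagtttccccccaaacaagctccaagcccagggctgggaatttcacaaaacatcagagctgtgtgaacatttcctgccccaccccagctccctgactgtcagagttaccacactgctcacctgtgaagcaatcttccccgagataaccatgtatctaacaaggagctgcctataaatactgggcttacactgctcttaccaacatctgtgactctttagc
The *S100a8* window held the PU.1 letters at 2 places, starting at -170 and -36 from the start site, and the *S100a9* window held the C/EBP letters once, at -236. Among all 32851 RefSeq windows of this length, 28.3% held the PU.1 letters and 10.8% the C/EBP letters, and the matches are a description only.

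*S100a8* had 33862 and 11811 counts in WT and 33132, 22405 and 962 counts in ∆M. Scaled to a common library total (CPM), these were 1683 and 341 CPM against 1359, 626 and 19.0 CPM. It was above the floor in all 5 libraries, and ∆M replicate 3, the deepest library, was the lowest in both units. The libraries of the same genotype differed 4.93-fold in WT and 71.6-fold in ∆M, while counting error alone gave a 95% Clopper-Pearson interval of 17.8 to 20.2 CPM for the lowest value, so the spread was far larger than counting error. These intervals and floors cover counting error only, as amplified reads are not independent molecules. In bulk RNA, fewer cells of a type and less RNA per cell cannot be told apart. *S100a9* had 29483 and 10969 counts in WT and 0, 4180 and 1041 counts in ∆M, or 1465 and 317 CPM against 0, 117 and 20.6 CPM. Every ∆M library lay below both WT libraries, and the 0 in ∆M replicate 1, whose 95% interval reaches 0.151 CPM, stood beside the second highest *S100a8* count of the series.

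Per kilobase of exon, *S100a8* and *S100a9* were at like levels in 3 libraries, with *S100a8* at 0.864 and 0.810 of *S100a9* in WT and 0.695 in ∆M replicate 3. In ∆M replicate 2 the ratio was 4.03. In ∆M replicate 1, with *S100a9* set at the floor of 3 counts in place of its 0, it came to 8307. The ratio farthest from the others was thus that of the library standing apart in its other measures.

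*Retnlg* and *Lcn2* encode secreted proteins. *Retnlg* (ENSMUSG00000022651.6, chromosome 16, 48872621 to 48874496, plus strand) encodes resistin-like gamma, which is made mainly by myeloid cells, and *Lcn2* (ENSMUSG00000026822.14, chromosome 2, 32384633 to 32388252, minus strand) encodes neutrophil gelatinase-associated lipocalin, which binds bacterial siderophores. *Retnlg* had 8892 and 355 counts in WT and 0, 9370 and 0 counts in ∆M, or 442 and 10.3 CPM against 0, 262 and 0 CPM. *Lcn2* had 2276 and 0 counts in WT and 26, 1523 and 0 counts in ∆M, or 113 and 0 CPM against 1.07, 42.6 and 0 CPM. For both genes the high libraries were WT replicate 1 and ∆M replicate 2, and the genotypes overlapped. *Retnla*, the resistin-like gene of alternatively activated macrophages that lies 28159 bases from *Retnlg*, had 635 and 0 counts in WT and 24733, 1757 and 0 in ∆M. Its highest library was thus one in which *Retnlg* had 0 counts.

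*Csf3r* encodes the receptor of G-CSF, the cytokine that drives neutrophil production and release, and is the only receptor among the 5 detected genes (ENSMUSG00000028859.14, chromosome 4, 126024550 to 126044440, plus strand). Its promoter window, chr4:126024409-126024708 (+), is shown because it was the other gene above the floor in every library, with the PU.1 letters once, at -86.
Csf3r: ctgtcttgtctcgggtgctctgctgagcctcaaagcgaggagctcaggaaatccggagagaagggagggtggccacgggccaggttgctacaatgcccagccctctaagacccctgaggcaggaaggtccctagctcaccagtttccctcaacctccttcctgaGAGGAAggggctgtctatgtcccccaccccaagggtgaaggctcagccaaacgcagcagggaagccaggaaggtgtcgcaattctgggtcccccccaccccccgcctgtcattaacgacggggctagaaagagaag
*Csf3r* had 33 and 7309 counts in WT and 15, 17767 and 4976 counts in ∆M, or 1.64 and 211 CPM against 0.615, 497 and 98.2 CPM. Its order over the libraries differed from that of the calprotectin genes, since WT replicate 1, the highest library for *S100a8* and *S100a9*, was near the bottom for *Csf3r*. Libraries of one genotype differed 129-fold in WT and 807-fold in ∆M. The neighbouring *Mrps15*, a mitochondrial ribosomal protein gene 2484 bases away, had 0 and 6909 counts in WT and 0, 13810 and 12554 in ∆M, so the 3 libraries rich in *Csf3r* were also the ones in which this gene was counted.

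**Figure D1:**
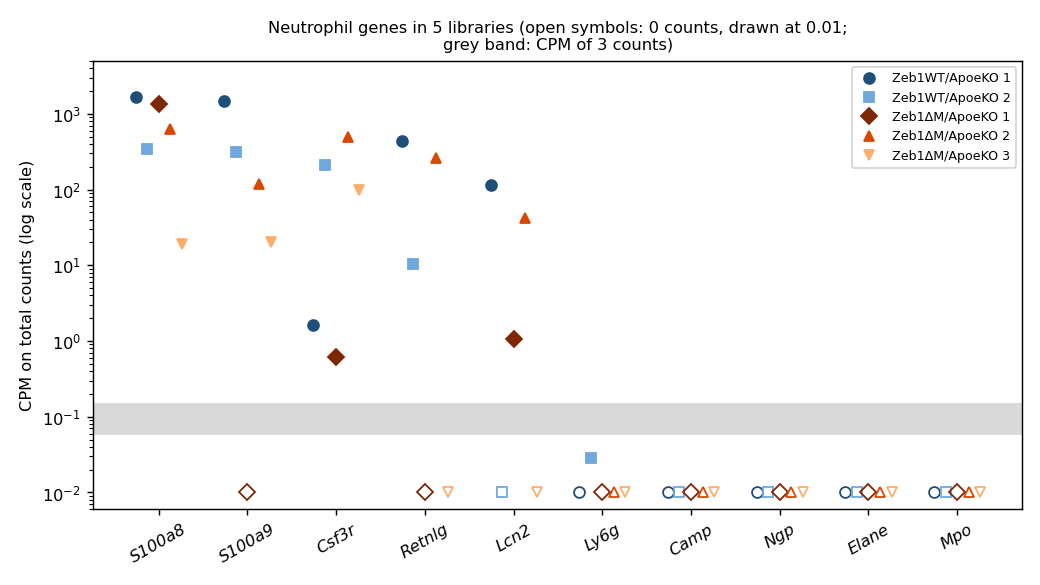
CPM on total counts (log axis) of the 10 genes in each of the 5 libraries, with blue symbols for WT, red and orange symbols for ∆M, open symbols for 0 counts and a grey band for the CPM of 3 counts. *S100a8* spans 19.0 to 1683 CPM, *Csf3r* 0.615 to 497 CPM, and the 5 genes on the right never rise above the band.

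The other 5 genes were at or under the floor. *Camp* (cathelicidin), *Ngp* (neutrophilic granule protein), *Elane* (neutrophil elastase) and *Mpo* (myeloperoxidase) had 0 counts in each library, which allows up to 0.0592 to 0.149 CPM depending on depth. *Ly6g* had 1 count, in WT replicate 2, whereas *Ly6c2*, a monocyte surface gene 43269 bases from *Ly6g* in the same gene cluster, had 26446 and 12491 counts in WT and 16, 32082 and 31256 in ∆M. The lowest values above the floor among the detected genes were 15 counts of *Csf3r* and 26 of *Lcn2*, both in ∆M replicate 1. The promoter window of *Mpo*, chr11:87793534-87793833 (+), is given as that of a gene never counted here. It held the PU.1 letters at 2 places, as did that of *S100a8*, at -247 and -224. *Gm11505*, a gene antisense to *Mpo*, had 1 count.
Mpo: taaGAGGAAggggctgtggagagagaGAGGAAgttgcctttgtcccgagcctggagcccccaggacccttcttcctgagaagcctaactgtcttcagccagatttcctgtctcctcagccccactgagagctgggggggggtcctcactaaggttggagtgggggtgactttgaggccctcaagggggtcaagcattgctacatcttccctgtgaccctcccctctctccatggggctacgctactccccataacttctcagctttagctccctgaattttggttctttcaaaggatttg
Over the whole set, 6 of the 10 genes had the PU.1 letters and 5 the C/EBP letters in a window, and *Camp* had neither. The shares among all RefSeq windows were 28.3% and 10.8%. The 10 genes had 11 windows, and the difference from these shares was not tested. With the PU.1 and the C/EBP letters taken separately, detected and undetected genes were found both among those with the letters and among those without.

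Compared per length over all 5 libraries, *S100a8* had the highest mean of the set, at 1161 ± 1004 CPM per kb (SD, n = 5 libraries), followed by *S100a9* at 736 ± 1183, *Retnlg* at 241 ± 339, *Csf3r* at 44.8 ± 57.2 and *Lcn2* at 12.0 ± 18.8 CPM per kb. Each SD was near to or above its mean. It measures the spread between libraries, not that of the difference between 2 genes within a library, and the order was not tested. *S100a9* was above *S100a8* in 3 of the 5 libraries and in the WT mean (1707 against 1459 CPM per kb), and the lead of *S100a8* came from ∆M replicates 1 and 2. *S100a8* and *S100a9* together made up 86.9% and 93.5% of the summed CPM per kb of the 10 genes in WT. In ∆M they made up 99.97% in replicate 1 (all of it *S100a8*), 65.4% in replicate 2 and 71.0% in replicate 3. The remainder was mostly *Retnlg* in WT replicate 1 (12.4%) and ∆M replicate 2 (25.7%), and mostly *Csf3r* in WT replicate 2 (4.98%) and ∆M replicate 3 (29.0%). The signal thus had a different make-up in each library.

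**Figure D2:**
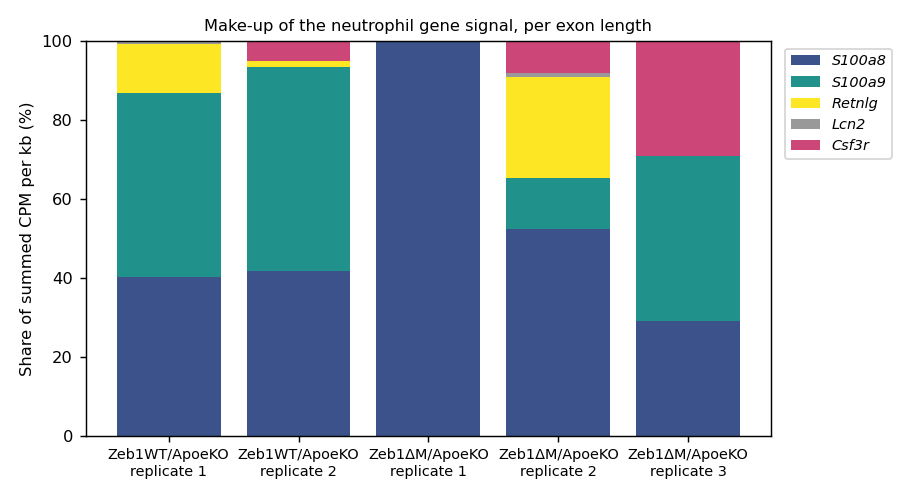
Share of the summed CPM per kb of exon of the 10 genes (vertical axis, %) taken by each detected gene in each of the 5 libraries. *S100a8* fills ∆M replicate 1, and *Csf3r* takes 29.0% in ∆M replicate 3.

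The comparison of ∆M with WT macrophages addressed what myeloid *Zeb1* loss does to gene expression in the plaque. None of the neutrophil genes passed the test. Summed over the 10 genes, the level was 3705 and 880.0 CPM in WT (2293 ± 1998, SD, n = 2) and 1361, 1544 and 138 CPM in ∆M (1014 ± 765, SD, n = 3), and the genotypes overlapped. On the log2 scale the mean sum was 1.18 lower in ∆M than in WT and 1.45 lower without ∆M replicate 1, less than the spread between libraries of a genotype (pooled SD 1.81). Without WT replicate 1 it was 0.21 higher in ∆M, and on TMM CPM, scaled by trimmed mean of M-values, the log2 ratio was -0.36. In the quasi-likelihood test of edgeR, adjusted by Benjamini-Hochberg over the 7905 genes tested, 0 of the 5 tested members were called (adjusted p = 1 for each), where 0% of all genes tested were called and 86 had an unadjusted p under 0.05. No member had an unadjusted p under 0.05 in that fit. With upper-quartile scaling, 1 of the 5 tested members had one, as did 164 of the 7905 genes tested. DESeq2 called 12.1% of the 6519 genes to which it gave an adjusted p and limma-voom with quality weights called 2.96% of 7905. Without ∆M replicate 1, DESeq2 called 30% of 7757 genes. None of these fits called any of the neutrophil genes, of which DESeq2 on all 5 libraries gave *Retnlg* no adjusted p.

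*S100a9* was the only one of the 5 tested genes in which the genotypes did not overlap (1465 and 317 CPM against 0, 117 and 20.6), with a mean of 891 ± 812 CPM in WT and 45.8 ± 62.4 CPM in ∆M. On TMM CPM *S100a9* did not overlap either (1067 and 318 against 0, 97.7 and 20.7). On that scale, 11.2% of all genes tested did not overlap in either direction and 4.54% had every ∆M library below both WT libraries. With these shares, 1 gene of 5 is not set apart from that background. Its log2 fold change was -4.13 (SE 3.87, Benjamini-Hochberg adjusted p = 1, edgeR) and -3.83 without ∆M replicate 1. Over the 5 libraries, an exact permutation test (two-sided) gave p = 0.2, and with 10 possible splits of 2 against 3 the smallest p is 0.1. DESeq2 gave an adjusted p of 0.339 and limma-voom 0.865. The *S100a9* estimate was negative in every fit in which it could be made.

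*S100a8* had a mean of 1012 ± 949 CPM in WT and 668 ± 671 CPM in ∆M, yet a fitted log2 fold change of 0.48 (SE 2.86), because TMM scaling raised ∆M replicate 1 to 2734 CPM. Without that library the estimate was -1.81. The median over all genes moved as well, and relative to it *S100a8* was lower in ∆M both in the fit to all libraries (-0.30) and without ∆M replicate 1 (-1.95). It stood above the median of its fit with the replicate number as a block (0.29), without ∆M replicate 2 (0.02) and without ∆M replicate 3 (0.73), and below it in the other 10 alternatives. The exact permutation test gave p = 0.9. *Csf3r* had a mean of 106 ± 148 CPM in WT and 199 ± 263 CPM in ∆M, a log2 fold change of 0.69 (SE 4.38), or 1.23 without ∆M replicate 1, and p = 0.7 in the exact permutation test. *Retnlg* (226 ± 305 against 87.3 ± 151 CPM) and *Lcn2* (56.6 ± 80.0 against 14.5 ± 24.3 CPM) had log2 fold changes of -1.19 (SE 4.48) and -1.71 (SE 4.71), or -0.93 and -1.55 without ∆M replicate 1. Without WT replicate 1 they were at 2.93 and 11.82, in a fit whose median over all genes was 6.42. Relative to that median, *Retnlg* stayed lower in ∆M (-3.49) and *Lcn2* turned (5.40). *Lcn2* also turned to 2.65 with the replicate number as a block. Relative to the median of its fit, *Csf3r* was at -6.62 without WT replicate 1, -1.59 without ∆M replicate 2 and 1.09 without ∆M replicate 1, so its place against all genes changed with the libraries. Standard errors of 2.86 to 4.71 on the log2 scale mean that even large differences would not have been detectable with these libraries. The median over all genes tested was 0.78, with 4811 genes estimated higher in ∆M and 3094 lower. Relative to it, the log2 fold changes were -4.91 for *S100a9*, -2.49 for *Lcn2*, -1.97 for *Retnlg*, -0.30 for *S100a8* and -0.09 for *Csf3r*.

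**Figure D3:**
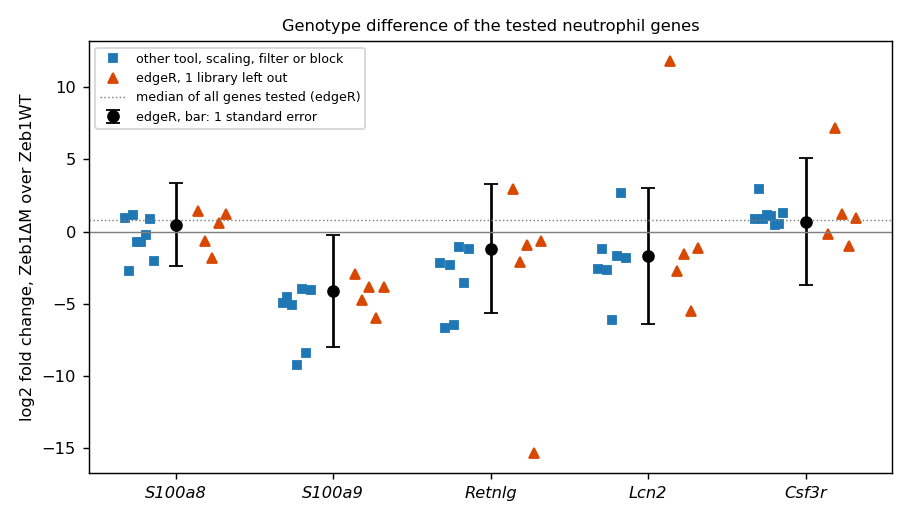
Log2 fold change of ∆M over WT (vertical axis) for the 5 tested genes, with black points and bars of 1 standard error for edgeR, blue squares for other tools, scalings, filters and the replicate block, orange triangles for fits without 1 library, and a dotted line at the median of all genes tested (0.78). Only the *S100a9* estimates all lie below 0.

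Other genes of the neutrophil were read in the same way. Of 4 further azurophil granule genes, *Prtn3*, *Ctsg* and *Bpi* had 0 counts in every library, and *Ms4a3*, a gene of granulocyte progenitors, had 10 counts in ∆M replicate 1 and 1 in replicate 3. Of 10 specific and gelatinase granule genes, 5 were above the floor in at least 3 libraries, but these included *Lyz2* and *Cybb* (the phagocyte oxidase subunit), which macrophages also express. Lactoferrin (*Ltf*) had 2 and 0 counts in WT and 7, 0 and 0 in ∆M. *Mmp8*, neutrophil collagenase, had 0 and 8665 counts in WT and 581, 0 and 2 in ∆M, so its highest library was WT replicate 2. *Chil3*, a chitinase-like gene of myeloid cells, had 2118 counts in WT replicate 1 and 0 in the other libraries, the opposite pattern within WT. Haptoglobin (*Hp*) had 0 and 28507 counts in WT and 20, 60184 and 54719 in ∆M, and the peptidoglycan recognition gene *Pglyrp1* 459 and 7522 against 12, 19118 and 30819. Both were low in WT replicate 1 and ∆M replicate 1, the same libraries in which *Csf3r* was low. None of the 6 tested genes of this list was called, with 4 estimated higher and 2 lower in ∆M and a median log2 fold change of 0.74.

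Among 11 surface receptors, 6 were above the floor in at least 3 libraries. *Cxcr2*, the chemokine receptor that brings neutrophils into tissue, had 3 and 0 counts in WT and 17, 105 and 0 in ∆M, and *Cxcr1* had 2 counts in all. Other receptors of the list were abundant in single libraries. The formyl peptide receptor *Fpr1* had 7858 counts in ∆M replicate 1 and 0 elsewhere, and the decoy receptor *Il1r2* 337 in WT replicate 2 and 22779 in ∆M replicate 2. *Clec4d*, a C-type lectin, had 8245 and 5709 counts in WT and 0, 20229 and 0 in ∆M. The Fc receptor *Fcgr3* had 2 and 52806 counts in WT and 0, 57914 and 105367 in ∆M. This gene is shared with monocytes and macrophages, and its low libraries were those of *Csf3r*. *Trem1* (10 to 2463 counts), *Clec4e* (12 to 14199) and *Cxcr4* (4 to 191), receptors of myeloid cells, were above the floor in all 5 libraries, each with a wide spread. Of 8 receptors tested none was called, with 5 estimated higher and 3 lower in ∆M (median log2 fold change 0.89). Of 13 cytosolic and other genes, the calcium-binding gene *S100a6* had the highest mean CPM, with 10738 and 4336 counts in WT and 0, 18980 and 14358 in ∆M. In the same list, *G0s2* (an inhibitor of lipolysis) and *Mxd1* (a MYC antagonist) were above the floor in all 5 libraries, *Lrg1* (8995 counts), *Wfdc21* (641) and the stefin *Stfa2l1* (363) were counted in WT replicate 2 alone, and the stefins *Stfa1*, *Stfa2* and *Stfa3* had 0 counts. None of the 5 tested was called, with 2 estimated higher and 3 lower (median -0.08).

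**Figure D4:**
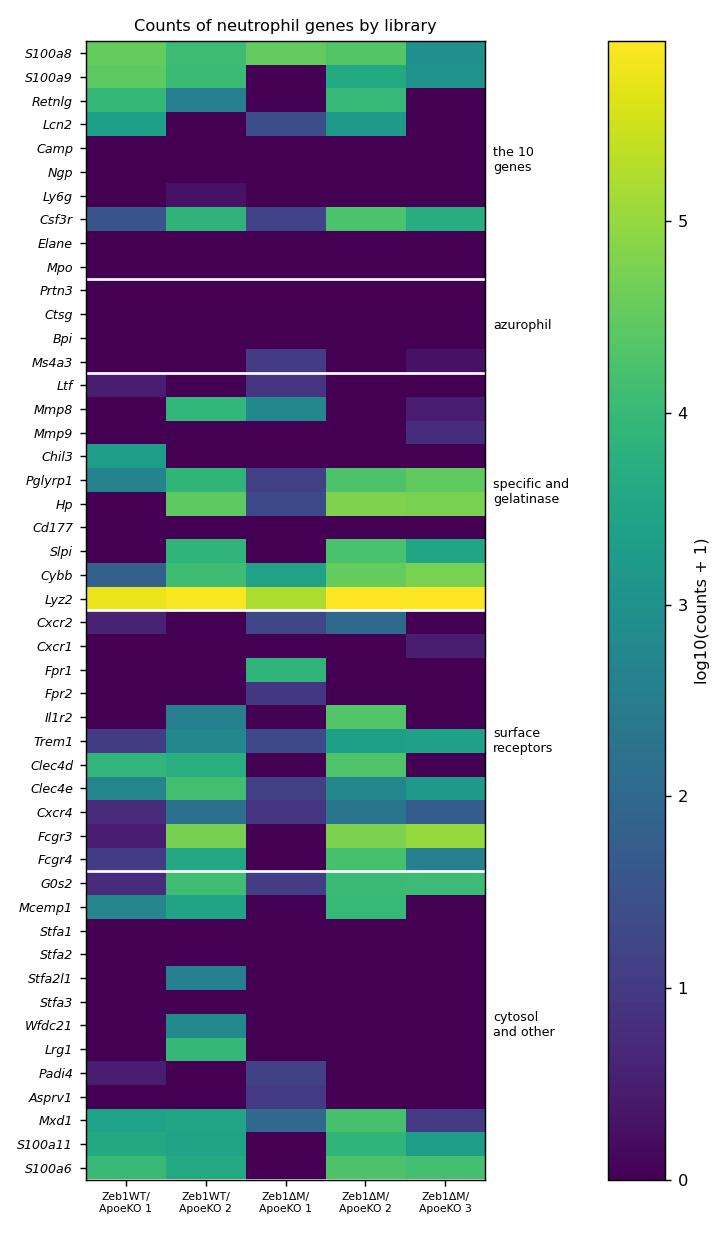
Heat map of log10(counts + 1) of the 10 genes and of further neutrophil genes by list (rows) in the 5 libraries (columns), from dark (0 counts) to yellow. *Prtn3*, *Ctsg* and *Bpi* are at 0 throughout, and *Lyz2*, at 161607 to 869804 counts, is the brightest row.

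The regulators and partners of the detected genes were counted unevenly too. Of 7 granulocyte transcription factor genes, *Spi1*, which encodes PU.1, had 616 and 15034 counts in WT and 15, 6854 and 3538 in ∆M, and *Cebpb* 284 and 86 against 581, 809 and 986. *Irf8*, a factor of monocyte fate with the highest mean CPM of the list, had 32623 and 4184 against 953, 3 and 8233. *Cebpe*, the factor of specific granule genes, had 7 counts, in ∆M replicate 1, and *Gfi1*, a repressor required for granulocyte differentiation, had 0 and 59 against 5, 0 and 1. On TMM CPM the genotypes did not overlap for *Cebpb*, with ∆M higher, as for 6.68% of all genes tested, and none of the 4 factors tested was called. In the G-CSF pathway, the ligand gene *Csf3* had 9 counts in all, of which 8 were in ∆M replicate 1. Of the signalling genes downstream of the receptor, *Stat3* had 3649 and 1098 counts in WT and 17, 3358 and 1960 in ∆M, and its feedback inhibitor *Socs3* 28 and 2872 against 7, 1358 and 4571. The adaptor gene *Grb2* had 17 and 1121 against 4165, 743 and 3584, and was thus highest where *Stat3* and *Socs3* were lowest. None of the 8 tested genes of this pathway was called, with 5 estimated higher and 3 lower in ∆M (median 1.90). Among receptors for calprotectin and lipocalin, the scavenger receptor *Cd36* had 61 and 4099 counts in WT and 8, 324 and 23754 in ∆M. *Tlr4* had 6 counts in all and its partner *Ly96* 139 in WT replicate 2 and 12301 in ∆M replicate 2, and 0 of the 3 genes tested were called.

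Markers of other cell types were summed in each library beside the neutrophil genes. A list of 7 further neutrophil markers (*Cxcr2*, *Ltf*, *Mmp8*, *Mmp9*, *Cd177*, *Prtn3*, *Ctsg*) summed to 0.249 and 250.5 CPM in WT and 24.8, 2.94 and 0.138 CPM in ∆M, with 0 of the 7 above the floor in 3 libraries and *Cd177*, *Prtn3* and *Ctsg* at 0 in all. Nearly all of the 2 highest sums was *Mmp8*. Without it the other 6 genes summed to 0.249 and 0 CPM in WT and to 0.985, 2.94 and 0.0987 CPM in ∆M, so that no library held more than 2.94 CPM of them. All 7 monocyte markers were above the floor in at least 3 libraries and summed to 2473 to 3754 CPM in WT and 2500 to 3899 CPM in ∆M. Without *Plac8*, which neutrophils also express, the other 6 summed to 2595 and 1758 CPM in WT and 4.96, 2012 and 1965 CPM in ∆M, so that in ∆M replicate 1 monocyte markers such as *Ly6c2* (16 counts), *Ccr2* (14) and *F13a1* (5) had few counts. The 11 macrophage markers summed to 35319 to 35485 CPM and 22998 to 39887 CPM, respectively, of which *Lyz2*, also a granule gene, and *C1qb* took most. Without both, the other 9 summed to 3930 and 7322 CPM in WT and to 16.4, 10964 and 8035 CPM in ∆M, so that most macrophage markers, too, were low in ∆M replicate 1. Several were also missing or low in WT replicate 1, where *Cd68* and *C1qa* had 0 counts and *Trem2* 10. The sum of that library was mostly *Cd14* (2948 CPM), *Mrc1* (541 CPM) and *C1qc* (416 CPM). *Plac8* itself had 23323 and 24733 counts in WT and 94910, 18930 and 27120 in ∆M, and so was highest in ∆M replicate 1, where *S100a8* was high and *S100a9* at 0. The sort markers *Ptprc*, *Itgam* and *Adgre1* summed to 830 to 1154 CPM in WT and to 63.3 to 1385 CPM in ∆M, the lowest being replicate 1, where *Itgam* (CD11b) had 0 counts. T cell markers summed to 10.2 and 2698 CPM in WT and to 1.15, 405 and 806 CPM in ∆M. Smooth muscle and fibroblast markers reached 531 CPM in ∆M replicate 2, nearly all *Dcn*, and dendritic cell markers 430.5 CPM in ∆M replicate 3, nearly all *Cd209a*. Endothelial markers summed to 72.3 and 72.1 CPM in WT and to 0.862, 0.140 and 51.9 CPM in ∆M. That sum was *Kdr* in WT replicate 1 and nearly all *Pecam1* in WT replicate 2 and ∆M replicate 3. B cell markers were above 0 in ∆M replicate 1 alone (2.67 CPM), and erythroid and platelet markers summed to 693 to 855 CPM in WT and 1561 to 8152 CPM in ∆M. Most of that last sum was the single gene *Pf4*, a platelet chemokine gene also expressed by macrophages, except in ∆M replicate 1. Without *Pf4* it was 3.73 and 81.3 CPM in WT and 8029, 0 and 45.9 CPM in ∆M, and the genotypes overlapped. The part of monocytes, of other cells or of the quality of single libraries in the level of the neutrophil genes was not tested.

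**Figure D5:**
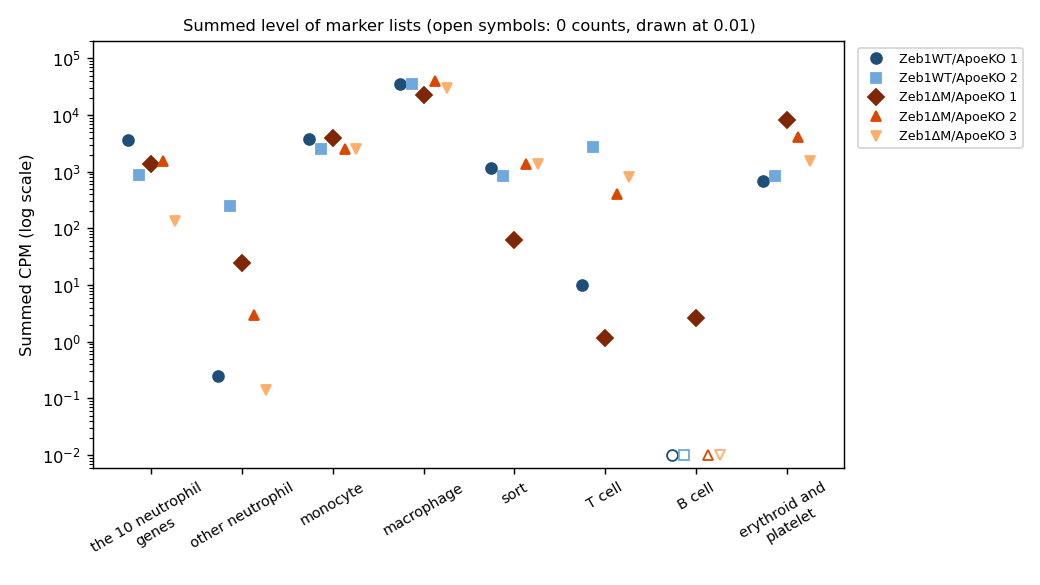
Summed CPM (log axis) of the 10 neutrophil genes and of 7 marker lists in each library, with blue symbols for WT, red and orange symbols for ∆M and open symbols for 0 counts. The 10 genes span 138 to 3705 CPM, and the monocyte sum in ∆M replicate 1 is nearly all *Plac8*.

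Likeness to *S100a8* was measured as the mean absolute difference of log2 CPM, centred on the mean of the 5 libraries, over the 7905 genes tested. The nearest were *Nmnat3* (0.75), *Ppan* (0.84) and *Vmn2r20* (0.88), genes of NAD synthesis, ribosome assembly and vomeronasal reception. Of these, *Nmnat3* had 0 to 23 counts, *Ppan* 0 to 382 and *Vmn2r20* 0 to 21. The other neutrophil genes were farther away, at 3.11 for *Lcn2*, 4.40 for *Retnlg*, 4.74 for *S100a9* and 5.25 for *Csf3r*, with 3176 to 6256 genes outside the set nearer to *S100a8* than they were. Over these 5 libraries the neutrophil genes did not follow *S100a8* more closely than many other genes did. The measure includes ∆M replicate 1, where *S100a9* had 0 counts beside 33132 of *S100a8*. Per kb of exon, *S100a8* stood at 0.864 and 0.810 of *S100a9* in WT and at 0.695 in ∆M replicate 3. Likeness without ∆M replicate 1 was not measured.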

How the data were processed

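RNAseq libraries of sorted aortic macrophages, 2 *Zeb1*WT/*Apoe*KO (WT) and 3 *Zeb1*∆M/*Apoe*KO (∆M), were made with the SMART-Seq v4 kit for ultra low input. The authors mapped reads to GRCm38 and deposited expected counts per gene as whole numbers; the submitters' processing notes name STAR 2.5.3a and RSEM 1.3.0. Members and gene lists were chosen with earlier results of these data known. The genotype label gave the group of each sample. All 5 count columns were used. All 10 members were matched to the GENCODE M21 annotation by ID with version (54349 of 55487 IDs in the table matched so, 55141 without version).

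CPM used total counts, from 20118545 to 50649912 per library, and CPM per kb the exon length of the annotation. The floor was 3 counts and intervals were 95% Clopper-Pearson. Genotypes were compared with edgeR 4.0.16 (quasi-likelihood test, TMM, genes filtered by filterByExpr with a minimum count of 10, threshold 0.05) in R 4.3.3. The test was run on simulated data, with a pass criterion only at a low dispersion (spread between libraries beyond counting error). The common dispersion of these data was 6.44, and how the test performs at that spread is not given here. DESeq2 1.42.0, limma 3.58.1 (voom), other scalings and filters, a replicate block and leaving out each library were the alternatives; DESeq2 without ∆M replicate 1 was added after the data had been seen. Log2 CPM for likeness used a prior count of 2. Named were the members, genotype and sort genes, neighbours, the 3 genes nearest to *S100a8*, and, in the lists of neutrophil genes and their pathways, genes with the highest mean CPM or above the floor in all libraries. Other marker lists are given mainly as sums. Every other gene of a list, such as *Ltf*, *Mmp8*, *Hp*, *Lrg1*, *Cxcr2*, *Cebpe*, *Csf3*, *Tlr4*, *Ly96*, *Pf4*, *Dcn*, *Cd209a* and *Hba-a2*, was named after its values were seen, as were the sums without *Plac8*, *Pf4*, *Mmp8*, or *Lyz2* and *C1qb*. Promoter windows came from RefSeq.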

Additional observations from a re-analysis of the deposited data

How the results depend on the processing

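The number of genes called between genotypes was 0 with edgeR under every scaling, filter and left-out library (0 to 0 without 1 library), 790 with DESeq2, 234 with limma-voom and 2328 of 7757 with DESeq2 without ∆M replicate 1. None of the neutrophil genes was called in any of these fits. The log2 fold change of *S100a8* moved from 0.48 to -2.73 with limma-voom, -0.74 with upper-quartile scaling, -0.75 without a filter, -0.26 with at least 10 counts in every library, -0.66 without WT replicate 2, -1.81 without ∆M replicate 1 and -2.04 with DESeq2 without that library. Relative to the median of all genes in each fit it was negative in the fit to all libraries (-0.30) and in these 7 (-6.98 to -0.38). *Csf3r* moved from 0.69 to -0.20 without WT replicate 1 and to -0.997 without ∆M replicate 2 (relative to the median, from -0.09 to -6.62 and -1.59), *Retnlg* to 2.93 (-3.49 relative to the median of all genes in that fit) and *Lcn2* to 11.82 without WT replicate 1; the cause was not tested. *S100a9* was negative in the fit to all libraries and in 12 alternatives, from -9.21 to -2.90. With upper-quartile scaling *Retnlg* was at -6.46 and *Lcn2* at -6.15, and with limma-voom they were at -6.70 and -1.17. With 1 library left out the values ran from -1.81 to 1.44 for *S100a8*, -6.01 to -2.90 for *S100a9*, -15.35 to 2.93 for *Retnlg*, -5.47 to 11.82 for *Lcn2*, -0.997 to 7.18 for *Csf3r* and -1.87 to 0.21 for the log2 ratio of summed CPM, which was above 0 only without WT replicate 1. A lone WT library was assumed to vary like the ∆M libraries. The ratio was -1.18 on total counts, -0.36 on TMM CPM and -0.37 without *S100a8* and *S100a9*. The median over all genes moved from 0.78 to 3.56 with DESeq2, -0.30 with limma-voom, 1.24 with RLE, 0.29 with upper-quartile scaling, 2.54 without a filter, 0.14 without ∆M replicate 1, 6.42 without WT replicate 1 and 6.32 without WT replicate 2. Directions are thus relative to the tool, the filter and the libraries as well as to the scaling. Leaving out a library or the filter also changed which genes were tested. The replicate numbers only name the libraries; across 7905 genes the difference between replicates 1 and 2 correlated between genotypes with r = 0.18, and with the replicate block 0 genes were called, 7 had an unadjusted p under 0.05 in place of 86, *S100a9* was at -8.41 and *Lcn2* at 2.65. *S100a9*, *Retnlg* and *Lcn2* could not be fitted with at least 10 counts in every library. The 5 detected genes were detected in at least 3 libraries at 1 count, 10 counts or 1 CPM. No group had the 4 libraries needed to look for a library far from the rest of its group.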
